A study of Homo sapiens with 16 samples.

Results

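A set of 9 genes of the early eye and of pigment cells, RAX, SIX3, SIX6, LHX2, MITF, PMEL, TYR, TYRP1 and DCT, was followed through cortical differentiation of human embryonic stem cells. They were chosen by name, from their known roles, with earlier results of these data known. All 9 were found among the 57736 genes of the count table and passed the filter on low counts, which kept 24249 genes. The cells were H9, an established human embryonic stem cell line, and every library comes from this line. Both arms were differentiated by dual SMAD inhibition, in which LDN-193189 blocks BMP signalling and SB-431542 blocks the TGF-β receptor kinases, so that cells take a neural fate. The TMG arm received Thiamet-G at 40 µM, an inhibitor of O-GlcNAcase, the enzyme that takes O-GlcNAc sugars off proteins, and the control arm received its solvent DMSO. Treatment covered the undifferentiated cells as well as the differentiation. RNA was taken at D0 (undifferentiated), D12, D30 and D70, with 2 libraries per stage and arm, 16 in all, which the study calls biological replicates. The comparisons ask how these genes changed with stage, and whether TMG moved them at any stage.

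The eye begins as a field of cells in the anterior neural plate, marked by the homeodomain factors RAX, SIX3, SIX6 and LHX2 together with PAX6. The field splits into the optic vesicles, where cells that keep MITF become retinal pigment epithelium and cells that lose it become neural retina. MITF is a basic helix-loop-helix factor that binds E-box sequences near pigment genes. Among them PMEL builds the fibrils on which melanin is laid down, TYR (tyrosinase) makes the first step of melanin synthesis, and TYRP1 and DCT are its relatives that act on later intermediates. Melanocytes, which come from the neural crest and not from the eye, use the same pigment genes, and so these genes alone do not tell these cell types apart.

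Library totals ran from 10334908 to 19836878 estimated counts, so that 3 counts, the limit below which a level was not told from 0, equal 0.147 to 0.291 CPM (counts relative to the TMM-scaled library size). These limits cover counting error only. The arm of each library follows its title and column name. For 8 of the 16 libraries a separate treatment tag names the other arm, and by those tags both replicate 1 libraries of a stage would share an arm. The 4 D70 libraries did not resemble each other. D70 TMG replicate 2 held PAX6, a factor of neural progenitors and of the eye, at 2.5 CPM and OTX2, a forebrain and eye factor, at 0.0925 CPM, whereas the other 11 libraries from D12 on held 246 to 587 CPM and 109 to 217 CPM. D70 DMSO replicate 2 held RCVRN, a calcium-binding protein of photoreceptors, at 11.1 CPM, against at most 0.555 CPM elsewhere. The members' calls of D70 against D0, and the listed genes' counts for D70 against D0 in controls, are also given without D70 DMSO replicate 2 where it changed them. In bulk RNA, fewer cells of a type and less RNA per cell cannot be told apart.

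In the GRCh37 annotation RAX lies at chr18:56934267-56941318 on the minus strand, SIX3 at chr2:45168841-45173210 on the plus strand, SIX6 at chr14:60975864-60979568 on the plus strand and LHX2 at chr9:126763949-126795580 on the plus strand. MITF spans chr3:69788607-70017487 on the plus strand. PMEL lies at chr12:56347889-56367101 on the minus strand, TYR at chr11:88911043-89028927 on the plus strand, TYRP1 at chr9:12685439-12710285 on the plus strand and DCT at chr13:95089065-95131936 on the minus strand. The preparation is not stated to keep strand, so reads over shared exon bases cannot be assigned with certainty. Such bases number 89 between PMEL and CDK2, 207 between SIX3 and SIX3-AS1, 102 between TYRP1 and LURAP1L-AS1, and 105 between LHX2 and an antisense transcript that had 0 counts in all libraries. TYRL, a partial copy of TYR, had 1 count in the 16 libraries together.

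RefSeq windows of 300 bases around annotated start sites (GRCh38.p14, from 250 bases before to 50 after) were at hand for 7 of the 9 genes, in 10 windows. SIX3 and PMEL had no window and were not searched. The motif TCATGTG, the core of the M-box that MITF binds, was searched on both strands. It occurred in windows of TYR, TYRP1 and DCT, 3 of the 7 genes, and in 2.92% of all 35116 windows. The shorter CATGTG, which TCATGTG contains, occurred in the same 3 genes and in 11.1% of windows. CACGTG, the other E-box form, occurred in none of the members' windows and in 7.26% of all. GGATTA, a core bound by OTX and CRX factors, occurred in TYRP1 and DCT and in 6.36% of all. A match is a run of letters and was not tested for binding. The 3 windows with TCATGTG are shown because they are the members' windows that hold this motif. They are written 5′ to 3′ on the gene's strand, with TCATGTG or CATGTG, read on either strand, in capitals. They cover chr11:89177625-89177924 (plus), chr9:12693135-12693434 (plus) and chr13:94479633-94479932 (minus).
TYR: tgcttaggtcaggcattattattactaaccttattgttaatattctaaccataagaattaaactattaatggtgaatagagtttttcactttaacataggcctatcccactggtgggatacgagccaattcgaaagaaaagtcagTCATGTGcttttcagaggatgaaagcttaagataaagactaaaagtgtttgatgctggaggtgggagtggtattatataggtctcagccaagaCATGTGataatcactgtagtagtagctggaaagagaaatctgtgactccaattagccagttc
TYRP1: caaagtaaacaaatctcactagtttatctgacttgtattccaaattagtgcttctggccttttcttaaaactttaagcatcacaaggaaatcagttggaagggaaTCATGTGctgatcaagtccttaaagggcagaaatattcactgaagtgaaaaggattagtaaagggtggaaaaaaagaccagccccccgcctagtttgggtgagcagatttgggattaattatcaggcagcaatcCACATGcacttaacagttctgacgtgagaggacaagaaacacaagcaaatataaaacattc
DCT: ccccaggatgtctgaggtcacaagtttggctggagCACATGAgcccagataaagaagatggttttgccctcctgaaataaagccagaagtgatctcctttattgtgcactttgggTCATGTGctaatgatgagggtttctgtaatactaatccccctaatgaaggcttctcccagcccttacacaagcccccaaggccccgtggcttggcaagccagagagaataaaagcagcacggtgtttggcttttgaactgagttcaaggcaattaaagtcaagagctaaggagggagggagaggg
Relative to the start site, TCATGTG began at −105 in TYR, at −145 in TYRP1 and at −135 in DCT, with a further copy on the opposite strand of DCT at −215.

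RAX, the earliest of the eye field factors, was low at D0 in controls, with 0.927 and 5.25 CPM in replicates 1 and 2. It stood at 16.9 and 7.88 CPM at D12, at 1.13 and 1.1 CPM at D30, and at 7.91 and 95.9 CPM at D70. The D12 libraries thus lay above both D0 and both D30 libraries, and the D70 pair differed 12.1-fold between replicates. Only the difference of D70 from D0 passed the test (log2 fold change 4.07 ± 1.35 SE, adjusted p = 0.0424, edgeR), and this call was lost without D70 DMSO replicate 2 and with the replicate block (adjusted p = 0.0664, edgeR). DESeq2 also called its difference of D30 from D12 (−3.44, adjusted p = 0.0343) and of D70 from D30 (5.53, adjusted p = 0.000328), and the former passed in the smaller edgeR fits too. In the 4 TMG groups RAX was 3.09 and 2.32, 4.16 and 0.808, 1.26 and 2.46, and 2.84 and 0.185 CPM from D0 to D70, and no stage comparison passed.

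SIX3, which represses WNT signalling in the anterior neural plate and is used in both forebrain and eye, was measured at 6.61 and 16.4 CPM in D0 controls. It stood at 56.5 and 22.7 CPM at D12, 40.3 and 47.9 CPM at D30 and 84.3 and 48.6 CPM at D70. Every control library from D12 on was above both D0 libraries, but no stage comparison passed in the edgeR fit of all 16 libraries (D70 against D0, log2 fold change 2.53 ± 1.35 SE, adjusted p = 0.178). That difference passed in the fit of only the groups compared (2.54, adjusted p = 0.0456, edgeR) and without both D70 replicate 2 libraries (2.91, adjusted p = 0.0355, edgeR). Under TMG the values were 11.2 and 11.1, 14.5 and 2.67, 20.3 and 4.45, and 37.2 and 0.37 CPM. Replicate 2 was the lower TMG library at each of D12, D30 and D70.

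SIX6, a close relative of SIX3 in retina and hypothalamus, was at 3.58 and 4.06 CPM in D0 controls, at 0.885 and 0.602 CPM at D12 and at 0 and 0.301 CPM (0 and 6 counts) at D30. At D70 it was at 0.0643 CPM (1 count) in replicate 1 and 29.3 CPM (364 counts) in replicate 2. That single library held 54.5% of all SIX6 counts. Under TMG SIX6 was 3.22 and 3.19 CPM at D0, 0.727 and 0.497 CPM at D12, 0.583 and 0.946 CPM at D30, and 0.316 and 0.0925 CPM at D70. No stage comparison of SIX6 passed in the edgeR fit of all 16 libraries without a replicate block. With the block its fall from D0 to D30 in controls passed. DESeq2 called SIX6 in controls at D30 against D0, D70 against D12 and D70 against D30 (log2 fold change 6.47, adjusted p = 0.00178), and under TMG at D70 against D0. In the smaller edgeR fits, of only the groups compared and without the D70 libraries, its fall from D0 to D12 in controls passed (−2.32, adjusted p = 0.012, and −2.35, adjusted p = 0.00915). The D70 value depended on replicate 2. With all libraries the control log2 fold change of D70 over D0 was 1.94 ± 1.39 SE (adjusted p = 0.313, edgeR), and without D70 DMSO replicate 2 SIX6 fell, at −5.71 ± 1.16 SE (adjusted p = 0.00736, edgeR), with D70 resting on 1 count. Without D70 DMSO replicate 1 it rose by 2.93 (adjusted p = 0.0143, edgeR).

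LHX2, a LIM homeodomain factor needed for the optic vesicle and also active in cortex, was at 1.3 and 4.27 CPM in D0 controls, 1.23 and 1.31 CPM at D12, 3.48 and 5.72 CPM at D30 and 11.3 and 13.8 CPM at D70. Both D70 libraries were above the 6 earlier ones. LHX2 rose from D12 to D70 (log2 fold change 3.29 ± 0.94 SE, adjusted p = 0.0482, edgeR), a call that was lost without D70 DMSO replicate 2. Under TMG LHX2 stood at 3.77 and 2.58, 0.364 and 1.06, 1.36 and 4.45, and 6.24 and 0.74 CPM in stage order, and no stage comparison passed in the edgeR fit of all 16 libraries, although D12 against D0 did in the smaller fits.

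**Figure D1:**
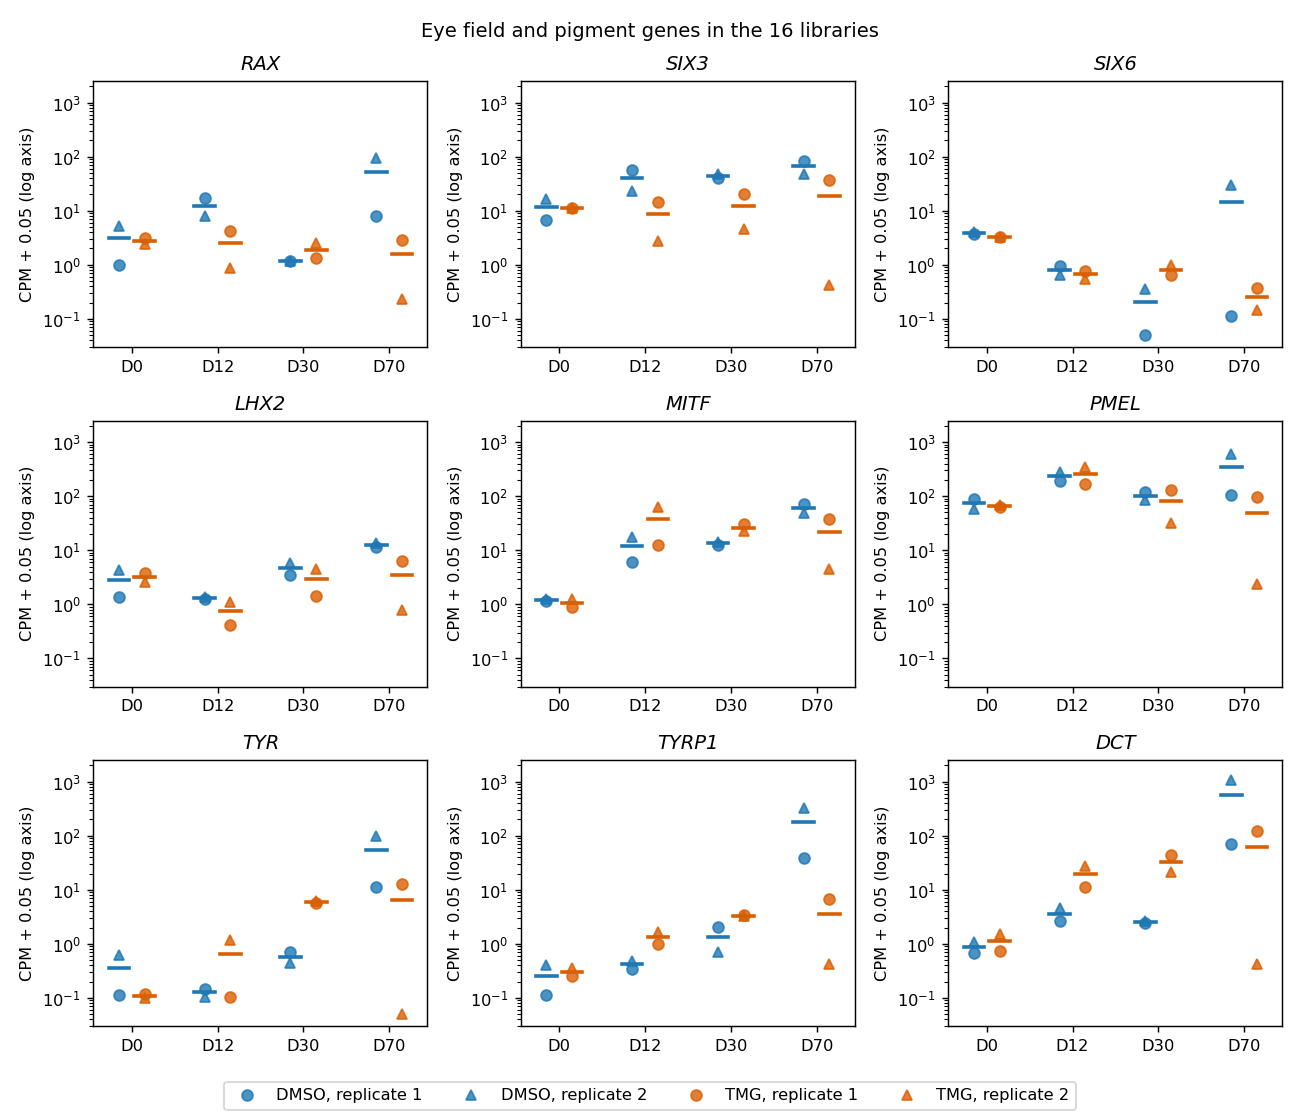
Level of each gene (CPM + 0.05, log axis) in the 16 libraries by stage. Points are libraries, circles replicate 1 and triangles replicate 2, blue DMSO and orange TMG, and bars are group means. At D70 the DMSO triangle is the highest point of 7 panels and the TMG triangle the lowest of 5.

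In the edgeR fit of all 16 libraries, MITF was the only member called against D0 at each later stage in both arms. Control libraries held 1.11 and 1.19 CPM at D0, 5.95 and 17.8 CPM at D12, 12.4 and 14.2 CPM at D30 and 71.6 and 48.9 CPM at D70. TMG libraries held 0.823 and 1.19 CPM at D0, 12.5 and 62.6 CPM at D12, 29.9 and 22.3 CPM at D30 and 38.2 and 4.44 CPM at D70. In both arms every later library was above every D0 library. MITF rose from D0 to D12 in controls (log2 fold change 3.36 ± 1.01 SE, adjusted p = 0.0453, edgeR) and under TMG (5.20 ± 1.08 SE, adjusted p = 0.00994, edgeR). In the edgeR fit of all 16 libraries without a replicate block it was the only member called at D12 or D30 against D0. There 16.7% and 30.6% of all genes were called in controls and 16.4% and 27.7% under TMG. DESeq2 and the smaller edgeR fits called further members at these stages. Its log2 fold changes at D30 were 3.52 ± 1.02 SE in controls (adjusted p = 0.0243) and 4.68 ± 1.06 SE under TMG (adjusted p = 0.00904). At D70 they were 5.70 ± 1.10 SE (adjusted p = 0.00371) and 4.39 ± 1.05 SE (adjusted p = 0.011). The control calls at D12 and D30 were lost when any 1 library of the groups compared was left out. The TMG calls at D12 and D30 were lost without either D0 TMG library, and the one at D12 also without D12 TMG replicate 2.

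PMEL, the fibril protein, was present at every stage, including D0, with 87.7 and 58.7 CPM in controls. It stood at 194 and 278 CPM at D12, 117 and 86 CPM at D30 and 107 and 598 CPM at D70. TMG libraries held 64.2 and 67.4, 170 and 348, 131 and 32.1, and 96.1 and 2.31 CPM. No stage comparison of PMEL passed in either arm in the edgeR fit of all 16 libraries. Its difference of D12 from D0 in controls passed in the fit of only the groups compared (log2 fold change 1.71, adjusted p = 0.00819, edgeR) and without the D70 libraries (1.68, adjusted p = 0.0459, edgeR), and under TMG in both. In the fit of only the groups compared PMEL also fell from D12 to D30 in controls (−1.19, adjusted p = 0.0139, edgeR). The share of these reads that may stem from the overlapping CDK2 was not tested.

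TYR was close to the counting limit before D30. Control libraries had 1 and 8 counts at D0, 2 and 1 counts at D12, 7 and 8 counts (0.658 and 0.401 CPM) at D30, and 177 and 1226 counts (11.4 and 98.7 CPM) at D70. TMG libraries had 1 and 1 counts at D0, 1 and 18 counts at D12, 58 and 65 counts (5.63 and 6.15 CPM) at D30, and 165 and 0 counts at D70, where a count of 0 allows up to 0.277 CPM. TYR rose from D0 to D70 in controls (log2 fold change 7.47 ± 2.01 SE, adjusted p = 0.0184, edgeR) and under TMG (6.61 ± 2.21 SE, adjusted p = 0.0455, edgeR). The fitted sizes depend on the near-zero D0 levels. The control call was lost without D70 DMSO replicate 2, and the TMG call with the replicate block.

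TYRP1 in controls was at 0.0618 and 0.35 CPM at D0, 0.295 and 0.438 CPM at D12, 1.97 and 0.652 CPM at D30 and 38.1 and 323 CPM at D70. TMG libraries held 0.206 and 0.309, 0.935 and 1.62, 3.3 and 3.22, and 6.8 and 0.37 CPM. TYRP1 rose in controls from D0 to D70 (log2 fold change 9.77 ± 1.56 SE, adjusted p = 0.0014, edgeR) and from D12 to D70 (8.92 ± 1.46 SE, adjusted p = 0.00581, edgeR). D70 DMSO replicate 2 carried 82.4% of all TYRP1 counts. Without that library the log2 fold change from D0 to D70 was smaller, at 7.52.

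DCT in controls was at 0.618 and 1.05 CPM at D0, 2.6 and 4.49 CPM at D12, 2.35 and 2.61 CPM at D30 and 68.8 and 1080 CPM at D70. TMG libraries held 0.686 and 1.44 CPM at D0, 11.2 and 27.5 CPM at D12, 43.7 and 21.4 CPM at D30 and 121 and 0.37 CPM at D70. DCT rose from D0 to D70 in controls (log2 fold change 9.42 ± 2.19 SE, adjusted p = 0.00949, edgeR) and under TMG (5.80 ± 1.89 SE, adjusted p = 0.0416, edgeR). Without D70 DMSO replicate 2 the control value was 6.37 ± 1.84 SE (adjusted p = 0.0322, edgeR). In controls it also rose from D12 to D70 (7.33 ± 1.95 SE, adjusted p = 0.0377, edgeR), a call that was lost without that library and with the replicate block. The TMG call of D70 against D0 was also lost with the block. D70 TMG replicate 2, at 0.37 CPM, lay below both D0 TMG libraries.

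Set in stage order, all 9 control means were highest at D70. For RAX, PMEL and SIX6 this rested on D70 DMSO replicate 2. In replicate 1 RAX (7.91 CPM) and PMEL (107 CPM) lay below their D12 control means (12.4 and 236 CPM). SIX6 (0.0643 CPM) lay there below its D0 control mean (3.82 CPM). Under TMG 5 means were highest at D70, 2 at D12 (MITF and PMEL) and 2 at D0 (RAX and SIX6). The share of all genes with their highest mean at D70 is not given for either arm. Of 27 pairs of neighbouring stages in the order of control means, 2 differed by the test (MITF at D12 over D0, and DCT at D70 over D12), and of 27 under TMG 1 did (MITF at D70 over D0). The remaining neighbours did not pass. Against D0, 5 of the 9 genes rose by D70 in controls (RAX, MITF, TYR, TYRP1 and DCT), where 29.8% of all genes were called in either direction, and 3 did under TMG (MITF, TYR and DCT), where 29% were. From D12 to D70, 4 rose in controls (LHX2, TYR, TYRP1 and DCT) against 11.1% of genes called, and 0 under TMG (1 at unadjusted p under 0.05, 0 by DESeq2) against 5.15%. From D12 to D30, 0 members were called in controls (1 at unadjusted p under 0.05, and 1, RAX, by DESeq2) against 3.6% of genes, and 0 under TMG (0 at unadjusted p under 0.05, 0 by DESeq2) against 0.511%. From D30 to D70, 0 were called in controls although 6 had an unadjusted p under 0.05, and TYRP1 came nearest (log2 fold change 7.17 ± 1.33 SE, adjusted p = 0.0519, edgeR). Here edgeR called 0.384% of all genes. DESeq2 called 5 members, and its share of all genes is not given. Under TMG 0 members (0 at unadjusted p under 0.05, 0 by DESeq2) and 0.00825% of genes were called from D30 to D70. These counts rest on single libraries. Without either D0 control library 2 of the 5 control calls at D70 were left (MITF and TYRP1), and without either D0 TMG library 0 of the 3 under TMG. With the replicate block 4 of the 5 control calls were left, without RAX. From D12 to D70 in controls DCT was not called with the block, and MITF was. The TMG count of 3 was 1 with the replicate block and without the filter (MITF in both). In the fit of only the groups compared the 1 member called was SIX6, which was lower at D70 than at D0. Without D70 TMG replicate 1 the D70 level rests on replicate 2, where SIX3 (0.37 CPM) and PMEL (2.31 CPM) lay below both D0 TMG libraries. Without either D12 control library 0 of the 4 calls from D12 to D70 were left, and without D70 DMSO replicate 2 only TYRP1.

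The D70 control libraries were not alike. Replicate 2 carried 82.4% of all TYRP1 counts, 76% of DCT, 70.5% of TYR and 54.5% each of RAX and SIX6, but 19.9% of PMEL, 18.9% of LHX2, 12.2% of MITF and 9.1% of SIX3. It was the highest of the 16 libraries for 7 of the 9 genes. It was highest for 5.5% of all genes. For DCT, TYRP1, TYR and SIX6 it was 8.87, 8.49, 7.57 and 7.22 times the next highest library. SIX3 and MITF were instead highest in replicate 1. With both D70 replicate 2 libraries left out, a choice made after the data were seen, the lone control library at D70 still exceeded D30 controls in DCT (log2 fold change 4.78, adjusted p = 0.00367), TYRP1 (4.93, adjusted p = 0.00309) and TYR (4.46, adjusted p = 0.0258) in edgeR, which assumes that this library varies like the others. SIX6 turned to −1.42 in that fit.

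At D0, TMG and control libraries overlapped in 8 of the 9 genes. SIX6 was lower in both TMG libraries by a mean ratio of 1.19, an arrangement seen in 16.9% of all genes, and the opposite arrangement was seen in 19.7% of genes and 0 members. Fitted log2 fold changes ran from −2.21 in TYR, with 1 to 8 counts per library, to 0.39 in DCT. By edgeR 0 members and 0% of genes were called, with 0 members and 1.26% of genes at an unadjusted p under 0.05. DESeq2 called 0 members.

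At D12 the fitted values were negative for the 4 eye field factors and positive for MITF and the 4 melanosome genes, with SIX6 (−0.27) and PMEL (0.14) near 0. RAX, SIX3 and LHX2 were lower in both TMG libraries than in both controls, with control means 4.98, 4.6 and 1.79 times the TMG means. This arrangement held for 16.5% of all genes. TYRP1 and DCT were higher in both TMG libraries, with mean ratios of 3.48 and 5.45, an arrangement held by 17.8% of genes. MITF was at 12.5 and 62.6 CPM under TMG against 5.95 and 17.8 CPM, so its libraries overlapped. It was higher under TMG in both same-numbered pairs, but did not pass with the replicate block (adjusted p = 0.763, edgeR). None of these differences passed the test. The log2 fold changes were −2.30 ± 1.26 SE for RAX (unadjusted p = 0.0949, edgeR, adjusted p = 1), −2.20 ± 1.33 SE for SIX3, 1.66 ± 0.89 SE for MITF (unadjusted p = 0.09, edgeR, adjusted p = 1) and 2.44 ± 1.60 SE for DCT. At an unadjusted p under 0.05 there were 0 members and 2.48% of genes, and 0 members and 0% of genes were called by edgeR and 0 members by DESeq2.

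Neural crest markers moved in the same D12 library as MITF and DCT. In D12 TMG replicate 2 the crest factor SOX10 was at 185 CPM against 44.7 to 59.2 CPM in the other 3 D12 libraries and ERBB3 at 211 CPM against 36.5 to 66.4 CPM. The 8 crest and melanocyte genes summed to 1370 CPM there against 479 to 686 CPM. This library was the highest of the 16 for 6 of the 8, and for 3.31% of all genes. MLANA, a melanosome protein, was at 6.83 CPM against 1.23 to 2.6 CPM. The part of crest cells in the D12 levels of MITF and DCT was not tested. In D12 TMG replicate 1, with SOX10 at 44.7 CPM, DCT was at 11.2 CPM and MITF at 12.5 CPM.

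At D30, 6 of the 9 genes were higher in both TMG libraries than in both controls (RAX, SIX6, MITF, TYR, TYRP1 and DCT), an arrangement held by 23.1% of all genes. DCT was at 43.7 and 21.4 CPM under TMG against 2.35 and 2.61 CPM, a mean ratio of 13.1. TYR was at 5.63 and 6.15 CPM against 0.658 and 0.401 CPM, a mean ratio of 11.1. The ratio was 5.08 for SIX6, on 0 and 6 counts in controls, 2.48 for TYRP1, 1.97 for MITF and 1.67 for RAX. SIX3 went the other way, with 20.3 and 4.45 CPM under TMG against 40.3 and 47.9 CPM, a control mean 3.56 times the TMG mean, and both TMG libraries were lower in 21% of genes. LHX2 and PMEL overlapped. By edgeR on all 16 libraries 0 members passed, as did 0% of all genes, and 0 members against 12% of genes had an unadjusted p under 0.05. DCT (log2 fold change 3.70 ± 1.71 SE, unadjusted p = 0.054, adjusted p = 0.425) and TYR (3.50 ± 1.75 SE, unadjusted p = 0.0705, adjusted p = 0.458) came nearest. DESeq2 called 0 members. When the 4 D70 libraries were left out of the fit, a choice made after the data were seen, DCT passed (3.70, adjusted p = 0.0277, edgeR) and TYR did not (3.52, adjusted p = 0.0806, edgeR).

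**Figure D2:**
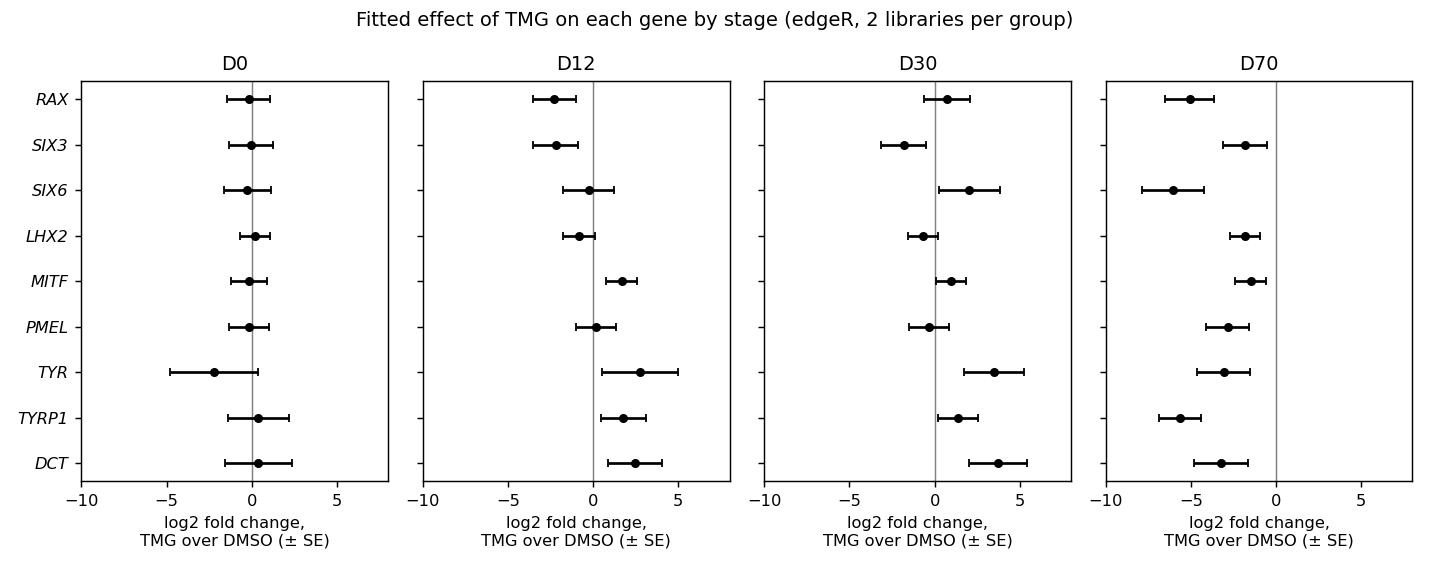
Fitted log2 fold change of TMG over DMSO for each gene at each stage (horizontal axis, bars ± SE, edgeR, 2 libraries per group). At D12 the values run from −2.30 (RAX) to 2.75 (TYR), with SIX6 and PMEL near 0, at D30 DCT and TYR reach 3.70 and 3.50, and at D70 all 9 are negative.

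At D70, RAX, SIX3, LHX2, MITF, PMEL and TYRP1 were lower in both TMG libraries, 6 of 9 genes where 12.4% of all genes had this arrangement, and 0 members were higher in both, as were 9.77% of genes. All 9 fitted log2 fold changes were negative. TYRP1 was at −5.63 ± 1.22 SE (unadjusted p = 0.000794, edgeR, adjusted p = 0.818), RAX at −5.07 ± 1.43 SE (unadjusted p = 0.00475, edgeR, adjusted p = 0.858), SIX6 at −6.07 ± 1.81 SE (unadjusted p = 0.0067, edgeR, adjusted p = 0.858) and PMEL at −2.84 ± 1.26 SE (unadjusted p = 0.0463, edgeR, adjusted p = 0.902). These 4 of 9 genes had an unadjusted p under 0.05, as did 5.49% of all genes, and 0 members and 0% of genes passed. DESeq2 called 3 members (RAX, SIX6 and TYRP1). The 0% of genes is the share called by edgeR, and that of DESeq2 is not given. Both replicate 2 libraries weigh on this comparison. The arms here follow the titles, and the treatment tags would put both of these libraries in the TMG arm and both replicate 1 libraries in the control arm. For RAX, PMEL, TYR and DCT the TMG arm of the tags would then hold the highest and the lowest of the 16 libraries and overlap its controls. No fit was made by the tags, and the conflict between them and the titles touches the TMG comparison at every stage. The paper reports TBR1, a gene of early-born neurons, as raised under TMG, most at D30. By the titles TBR1 was at 11.5 and 30.2 CPM under TMG against 6.01 and 2.36 CPM at D30. At D70 it was at 31.7 and 0.0925 CPM against 49 and 3.86 CPM. Which labels are right was not tested. Of the D70 replicate 2 libraries, the TMG one was the lowest of the 16 for RAX, SIX3, PMEL, TYR and DCT, and for 17.2% of all genes. Without both, the values were 0.82 for DCT, 0.20 for TYR, 2.17 for SIX6, −0.15 for PMEL, −0.85 for LHX2, −0.91 for MITF, −1.18 for SIX3, −1.47 for RAX and −2.48 for TYRP1, and none passed. Without only the D70 TMG replicate 1 library all 9 values were further below 0, from −3.77 for MITF to −12.71 for TYR. TYR then rested on 0 counts in the TMG library left. Without only D70 DMSO replicate 1 SIX6 was at −7.06.

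The difference between the TMG effects of 2 stages was also fitted. From D0 to D12, from D12 to D30 and from D30 to D70, 0 members and 0% of all genes were called. Between D30 and D70 the effect changed by −7.02 ± 1.65 SE in TYRP1 (unadjusted p = 0.00142, edgeR, adjusted p = 1), −6.94 ± 2.34 SE in DCT (unadjusted p = 0.0132, edgeR, adjusted p = 1), −6.57 ± 2.34 SE in TYR, −8.11 ± 2.54 SE in SIX6 and −5.80 ± 1.92 SE in RAX, each on the log2 scale. Those 5 had an unadjusted p under 0.05, as did 4.03% of all genes, and DESeq2 called 1, TYRP1. At the earlier steps 0 members did, and DESeq2 called 0. SIX3 had log2 fold changes of −1.83 at D30 and −1.82 at D70, with a difference of 0.02 ± 1.79 SE. It was the member that lay lower in both TMG libraries at each of D12, D30 and D70.

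Other genes of the same tissues were listed by role. Of 13 further eye field and optic vesicle genes, 11 passed the filter and 5 rose from D0 to D70 in controls, where 29.8% of all genes were called in either direction. Among the 5 were TBX2, which patterns the dorsal optic cup (log2 fold change 6.47 ± 1.44 SE, adjusted p = 0.00788, edgeR), and PAX6 (5.06 ± 1.58 SE, adjusted p = 0.0338, edgeR). The median of the 11 tested was 3.28, beside 0.027 over all genes. Of 13 melanosome and pigment genes, 6 rose over the same span, against the same 29.8%, among them GPNMB, a relative of PMEL (6.65 ± 1.27 SE, adjusted p = 0.00362, edgeR), and the melanosome transporters SLC45A2 (5.94 ± 1.35 SE, adjusted p = 0.00867, edgeR) and OCA2 (4.91 ± 1.31 SE, adjusted p = 0.0176, edgeR). The median of the 13 was 1.90. MYO5A, the motor that carries melanosomes and other cargo, did not pass and lay between 64.9 and 123 CPM in all libraries. Of the 3 relatives of MITF, TFEC and TFEB rose and TFE3 did not pass. Without D70 DMSO replicate 2, in a fit added after the data were seen, 3 eye field genes, 5 melanosome genes and 1 MITF relative rose. The medians were then 1.99 for the eye field list and 0.95 for the melanosome list, beside −0.076 over all genes. PAX6 (5.06, adjusted p = 0.0577, edgeR) no longer passed, and TBX2 (3.75, adjusted p = 0.04, edgeR) and SLC45A2 (3.98, adjusted p = 0.0411, edgeR) were smaller.

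Of 13 genes of the retinal pigment epithelium, 12 passed the filter, 7 rose from D0 to D70 in controls and 1 fell, where 29.8% of all genes were called. Those that rose include TRPM1 (log2 fold change 9.62 ± 1.71 SE, adjusted p = 0.00249, edgeR), RPE65, the isomerase of the visual cycle (8.25 ± 2.26 SE, adjusted p = 0.0201, edgeR), and SERPINF1 (3.80 ± 0.39 SE, adjusted p = 0.00016, edgeR). LRAT, which esterifies retinol, fell (−8.03 ± 0.66 SE, adjusted p = 5.66e-05, edgeR). Without D70 DMSO replicate 2, 5 rose and 1 fell, and TRPM1 was at 6.03 (adjusted p = 0.00564, edgeR). The defining genes did not share a library. RPE65 was at 63.7 CPM in D70 DMSO replicate 1 and 20.1 CPM in D70 TMG replicate 1 but at 1.37 CPM in D70 DMSO replicate 2, where RLBP1 (5.71 CPM), RGR (7.48 CPM) and TRPM1 (163 CPM) were highest. The choroid plexus list summed to 11200 and 3500 CPM in D70 DMSO and TMG replicate 1 and to 436 and 82.5 CPM in replicate 2. TTR alone made up 9810 and 2910 CPM of the replicate 1 sums. FOLR1, CLIC6, HTR2C, LMX1A and MSX1 were also higher in both replicate 1 libraries, the RPE65-high ones, than in both replicate 2 libraries. Other genes of the list did not follow. PRLR was higher in replicate 2 (32.6 and 27.9 CPM against 8.81 and 4.5 CPM). KL lay between 1.16 and 1.48 CPM. AQP1 was at 138 CPM in DMSO replicate 2 against 132 CPM in TMG replicate 1.

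In D70 DMSO replicate 2, 10 of the 12 neural retina genes had their highest level, and their sum was 159 CPM against 2.22 to 28.7 CPM in the other 15 libraries. CRX, a photoreceptor precursor factor, was at 45.6 CPM, ATOH7, a ganglion cell factor, at 23.3 CPM and RCVRN at 11.1 CPM, while the rod gene GNAT1 was at 0.0805 CPM (1 count). Only 5 of the 12 passed the filter, since the others did not reach the minimum in enough libraries. The neural crest list was highest there for 0 of its 8 genes, but some of its genes stood above other D70 libraries. SOX10 was at 6.2 CPM against 1.29 to 2.76 CPM in the other 3, and ERBB3 at 33.7 CPM against 1.16 CPM in D70 DMSO replicate 1 and 102 CPM in D70 TMG replicate 2. MLANA, at 8.05 CPM, was at its highest of the 16 libraries. The part of crest or melanocyte cells in the members' levels there was not tested.

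Under TMG, 0 genes of any of these lists passed at any stage by edgeR, with 0 to 3 genes of a list at an unadjusted p under 0.05. At D30 the 12 tested genes of the pigment epithelium list all had a fitted change above 0, with a median of 0.93 beside 0.011 over all genes, and 3 had an unadjusted p under 0.05, as did 12% of all genes. Lists of other tissues lay on both sides of 0. The hypothalamus list had a median of −0.44, with 1 of 3 tested genes above 0. The median was 0.95 for choroid plexus, with 8 of 9 above 0, 2.02 for telencephalon, with 4 of 6, 0.69 for neurons, with 4 of 4, and 3.32 for the pluripotency list, with 4 of 4. In that list POU5F1 was at 9.13 and 5.49 CPM under TMG against 0.094 and 0.401 CPM (log2 fold change 4.65 ± 0.58 SE, adjusted p = 0.0868, edgeR). RPE65 was at 3.59 and 7.38 CPM under TMG against 1.03 and 0.853 CPM, and TFEC, the MITF relative, at 12.4 and 5.77 CPM against 1.22 and 1.05 CPM. For the melanosome list the median was 0.24, with 8 of 13 above 0, and for the other eye field genes 0.53, with 8 of 11 above 0. The neural retina list had a median of 0.38, with 3 of 5 tested genes above 0. It summed to 23.5 and 23.9 CPM under TMG against 4.42 and 9.18 CPM. CRX, at 17.4 and 18.3 CPM against 1.6 and 5.47 CPM, made up most of the TMG sums. NRL was at 1.17 and 1.14 CPM under TMG against 1.03 and 1.25 CPM. Crest markers were mixed at D30, with a list median of 0.57, 5 of 8 above 0 and 2 at an unadjusted p under 0.05. FOXD3 was at 0.486 and 3.98 CPM under TMG against 0 and 0.1 CPM (0 and 2 counts, unadjusted p = 0.00595, adjusted p = 0.248, edgeR). SOX10 was at 6.51 and 15.9 CPM under TMG against 5.92 and 5.52 CPM, PAX3 at 176 and 159 CPM against 48.4 and 79.6 CPM, and EDNRB at 1.55 and 1.61 CPM against 8.08 and 7.13 CPM. The part of crest or choroid plexus cells in the D30 levels was not tested.

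**Figure D3:**
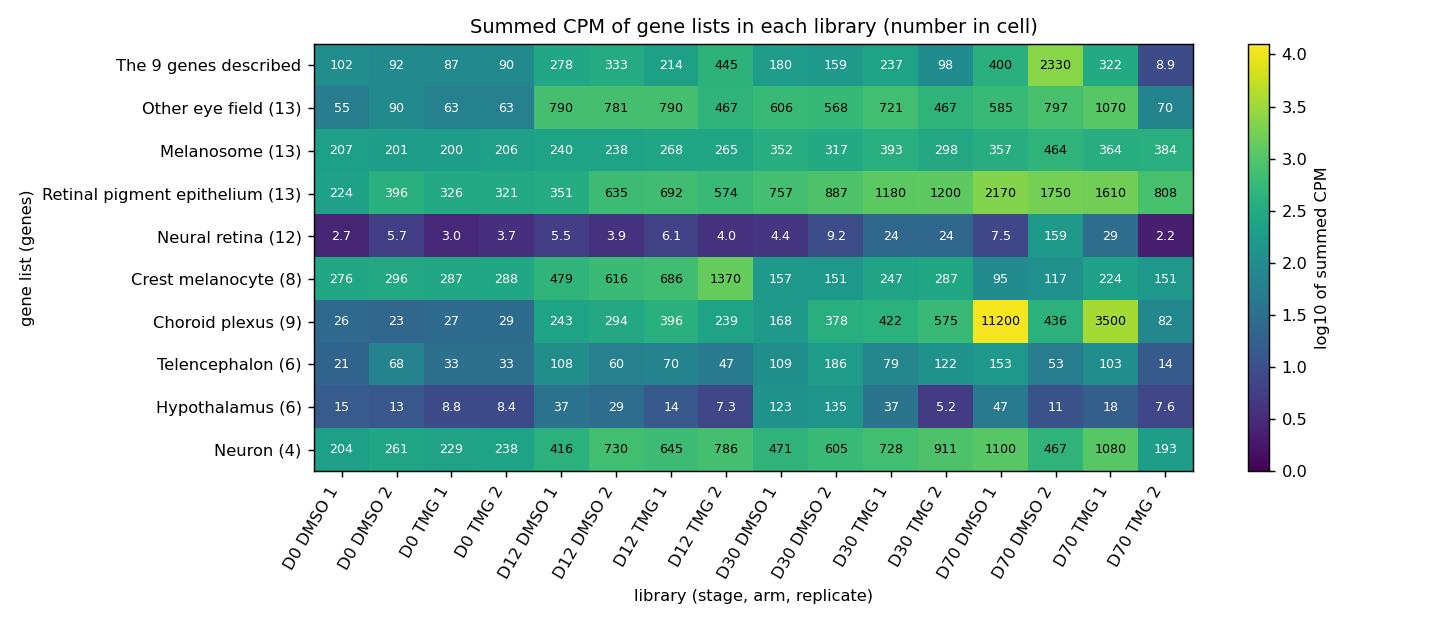
Summed CPM of gene lists (rows, number of genes in brackets) in each of the 16 libraries (columns), with colour as log10 of the sum. The 9 genes described sum to 2330 CPM in D70 DMSO replicate 2 and 8.88 CPM in D70 TMG replicate 2, and neural retina genes to 159 CPM in the former. Choroid plexus genes sum to 11200 and 3500 CPM in the D70 replicate 1 libraries, of which TTR alone is 9810 and 2910 CPM.

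Among themselves the members fell into tight and loose pairs. On log2 CPM over the 16 libraries Pearson's r was 0.93 for TYR and TYRP1, 0.91 for TYR and DCT and 0.91 for TYRP1 and DCT, the genes whose windows share TCATGTG, and 0.89, 0.85 and 0.86 without D70 DMSO replicate 2. MITF followed DCT with r = 0.83, TYRP1 with 0.74 and TYR with 0.70, and the values without that library were 0.86, 0.81 and 0.70. LHX2 had r = 0.46 with DCT, 0.65 with TYRP1 and 0.70 with TYR, and 0.26, 0.51 and 0.60 without that library. PMEL, which had no window to search for the motif, was less close to TYR (0.35), TYRP1 (0.38) and DCT (0.55). Its values were 0.14, 0.15 and 0.42 without that library. Among the eye field factors RAX and SIX3 had r = 0.64, RAX and SIX6 0.56, which was 0.22 without that library, and SIX3 and SIX6 0.05, which was −0.13 without it. These are descriptions of libraries that share stage and treatment. A high MITF level was not always matched by TYR and TYRP1. At D12 TMG replicate 2, with MITF at 62.6 CPM, TYR was at 1.12 CPM and TYRP1 at 1.62 CPM, while DCT, at 27.5 CPM, was at its highest of the 4 D12 libraries. D70 DMSO replicate 2, with MITF at 48.9 CPM, held 98.7 CPM of TYR, 323 CPM of TYRP1 and 1080 CPM of DCT.

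**Figure D4:**
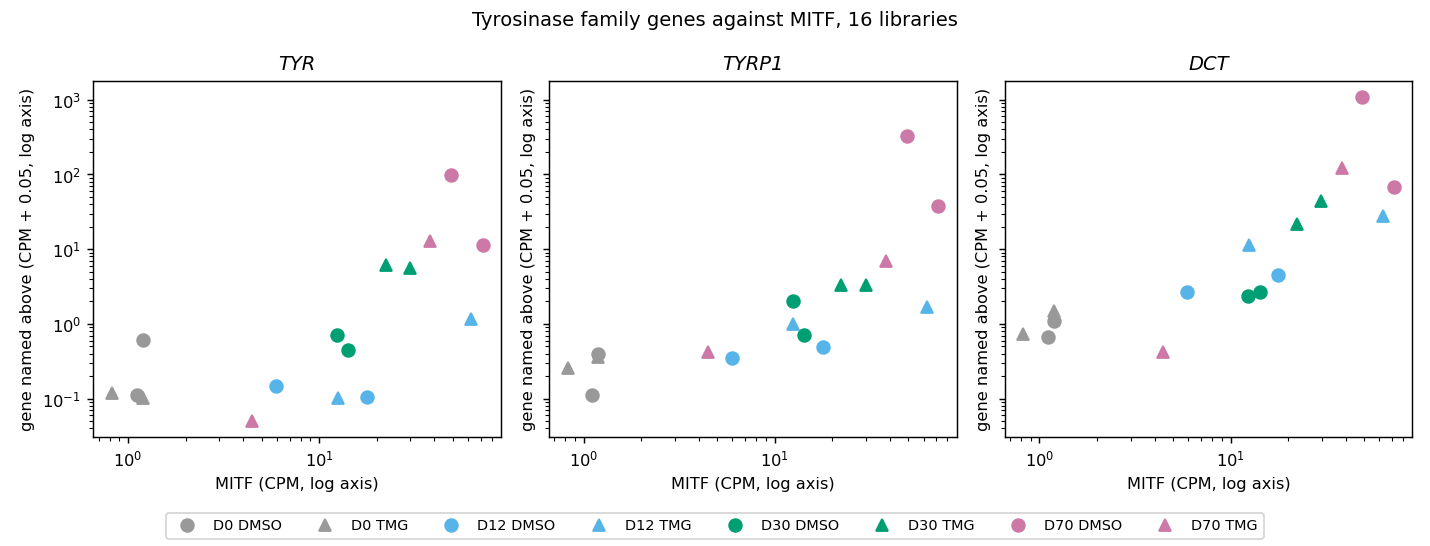
TYR, TYRP1 and DCT (CPM + 0.05, log axes) against MITF (CPM) in the 16 libraries, coloured by stage, circles DMSO and triangles TMG. The 3 genes rise with MITF over libraries (r = 0.70, 0.74 and 0.83), and the D12 TMG library with MITF at 62.6 CPM lies below the D70 DMSO libraries in each panel.

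The 5 genes whose log2 CPM profile over the 16 libraries was most like the mean of RAX, SIX3, SIX6 and LHX2 were MIP, a lens water channel (Pearson's r = 0.916), PTPN18 (0.824), NRL, a rod factor (0.823), STAB1 (0.823) and CKB (0.819). MIP was at 16.7 CPM in D70 DMSO replicate 2 and at most 1.34 CPM elsewhere, and its r was 0.846 without that library. For the mean of PMEL, TYR, TYRP1 and DCT they were EML5 (0.937), NRCAM (0.915), RGS8 (0.899), CRB1, a polarity protein of the retina (0.897), and DPY19L2P1 (0.89). CRB1 was at 107 CPM in D70 DMSO replicate 2 and at most 7.8 CPM elsewhere. For MITF they were RELN, an extracellular guide of neuronal migration (0.96), P2RX6 (0.957), BACE1 (0.943), ZSCAN26 (0.939) and BAALC (0.936), and RELN was higher in another library (988 CPM) than in D70 DMSO replicate 2 (237 CPM).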

How the data were processed

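Total RNA from 16 H9 samples was depleted of ribosomal RNA and sequenced. Per the labels and the study's methods, the authors aligned reads to hg19 with Bowtie2 and deposited estimated counts per gene from RSEM (version 1.2.12), as whole numbers, used here without change. A multi-mapped read is shared among copies by RSEM. Gene IDs were given symbols from the annotation (55501 of 57736 matched). Genes passed edgeR's expression filter (minimum count 10, minimum total 15). A quasi-likelihood model (edgeR 4.0.16, TMM scaling, robust dispersion) was fitted to all 16 libraries in 8 groups, with 8 residual degrees of freedom. Each contrast was adjusted by Benjamini-Hochberg over 24249 genes at a false discovery rate of 5%. SE is the log2 fold change over the square root of F. The two-sided p-values of edgeR come from F-tests. They set a difference against the spread within groups, estimated for each gene over all 8 groups with help from other genes. The unlike D70 pairs thus enter the spread used at earlier stages too. CPM values use TMM library sizes, and log2 CPM a prior count of 2. The edgeR code was tested on simulated counts. DESeq2 (1.42.0), RLE scaling, no filter, a replicate block, smaller fits and leaving out libraries were the alternatives. All 9 members are named, and listed genes were named if called (at most 4 per list and comparison) or among the 2 most abundant of their list, with the 5 genes most like each profile. Other listed genes, given where their libraries stood apart, were chosen after their values were seen. The members and lists were chosen with earlier results of these data known. Positions come from GENCODE on GRCh37, promoters from RefSeq on GRCh38.p14. R 4.3.3, limma 3.58.1 and matplotlib 3.10.9 were used. Some results of listed genes are not reported here.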

Additional observations from a re-analysis of the deposited data

Results flagged for a closer look

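In some genes both TMG libraries lay on one side of the controls at one stage and on the other side at another. The log2 fold change of TMG over DMSO changed in RAX by 3.04 from D12 to D30 (unadjusted p = 0.126, edgeR) and by −5.80 from D30 to D70 (unadjusted p = 0.0118, edgeR), in MITF by −2.47 from D30 to D70 (unadjusted p = 0.0742, edgeR) and in TYRP1 by −7.02 from D30 to D70 (unadjusted p = 0.00142, edgeR). The adjusted p was 1 for each. In SIX6 the change was 2.29 from D0 to D30, and in TYRP1 −7.41 from D12 to D70, and these differences between stages that do not follow each other were not tested. In the D70 replicate 1 libraries, TMG against DMSO, RAX was at 2.84 against 7.91 CPM, MITF at 38.2 against 71.6 CPM and TYRP1 at 6.8 against 38.1 CPM. Their order was fixed by the way these genes were flagged, with both TMG libraries below both controls at D70, and so it is no separate test.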

How the results depend on the processing

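The number of members called moved with the choice of fit. RLE scaling moved no count. Shares of all genes printed beside member counts are those of the edgeR fit of all 16 libraries. Shares for the other fits are not given, so their member counts have no background here. DESeq2 called 2 (D12 against D0, TMG), 2 (D30 against D0, DMSO), 4 (D30 against D0, TMG), 1 (D30 against D12, DMSO), 6 (D70 against D0, DMSO), 5 (D70 against D0, TMG), 6 (D70 against D12, DMSO), 5 (D70 against D30, DMSO), 3 (TMG at D70) and 1 (TMG effect, D70 against D30), where edgeR called 1, 1, 1, 0, 5, 3, 4, 0, 0 and 0. Without the filter, which tests 43143 genes, counts were 0, 0, 3, 1 and 1 for D12 against D0, D30 against D0 and D70 against D0 in controls, D70 against D0 under TMG and D70 against D12 in controls. Fits of only the groups compared gave 4 and 6 at D12 against D0 and 5 and 5 at D30 against D0 (DMSO, TMG), 3 at D30 against D12 in controls, 1 at D70 against D0 under TMG and 0 at D70 against D12 in controls. Without the 4 D70 libraries (chosen after seeing the data) counts were 4 and 6 at D12 against D0, 3 and 5 at D30 against D0, 1 and 1 at D30 against D12 and 1 for TMG at D30. Without both D70 replicate 2 libraries (also chosen afterwards) they were 5 and 4 under TMG and 6 and 5 in controls for D70 against D0 and D12, and 3 in controls for D70 against D30.

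Same-numbered libraries of the 2 arms had replicate differences correlated over genes at 0.045 (D0), 0.367 (D12), 0.223 (D30) and 0.607 (D70), and no label ties the numbers to a culture. With the replicate block, the counts were 2 at D30 against D0 in controls, 4 at D70 against D0 in controls, 1 at D70 against D0 under TMG and 1 at D70 against D30 in controls, against 1, 5, 3 and 0 without it. Calls lost were RAX (controls, adjusted p = 0.0664, edgeR) and TYR and DCT (TMG) at D70 against D0. At D70 against D12 in controls the count stayed at 4, with MITF called and DCT not. RAX and SIX3 under TMG at D0 turned to 0.12 and 0.07, and SIX6 at D70 against D0 in controls to −0.21.

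Leaving out 1 library at a time gave 0 to 0 (D12 against D0, DMSO), 0 to 1 (TMG), 0 to 0 (D30 against D0, DMSO), 0 to 1 (TMG), 2 to 6 (D70 against D0, DMSO), 0 to 4 (TMG), 0 to 4 (D70 against D12, DMSO), 0 to 1 (TMG), 0 to 2 (D70 against D30, DMSO), 0 to 1 (TMG), 0 to 5 (TMG at D70) and 0 to 3 (TMG effect, D70 against D30). The lone library left is assumed to vary like the others. Log2 fold changes that turned then spanned, for TMG at D0, −0.26 to 0.82 (DCT), −0.40 to 1.29 (LHX2), −0.48 to 0.06 (MITF), −0.41 to 0.19 (PMEL), −0.93 to 1.54 (RAX), −0.53 to 0.76 (SIX3) and −0.37 to 1.95 (TYRP1), at D12 −0.48 to 0.56 (PMEL), −0.58 to 0.02 (SIX6) and −0.51 to 3.71 (TYR), at D30 −1.66 to 0.37 (PMEL) and at D70 −7.19 to 1.60 (SIX6). In controls they spanned −0.40 to 1.16 (MITF) and −0.35 to 0.98 (SIX3) for D30 against D12, −1.41 to 10.75 (SIX6) for D70 against D30, −2.70 to 0.29 (TYR) for D12 against D0 and −5.71 to 2.93 (SIX6) for D70 against D0. Without both D70 replicate 2 libraries TMG at D70 turned to 0.82 (DCT), 0.20 (TYR) and 2.17 (SIX6), and SIX6 in controls to −1.42 at D70 against D30 and −5.70 at D70 against D0. Of the turned values, that of SIX6 at D70 against D0 passed the test, without D70 DMSO replicate 2 (adjusted p = 0.00736, edgeR) and without both replicate 2 libraries (adjusted p = 0.00195, edgeR), and the others did not. Beyond what the construction of each fit shows (fewer genes or libraries), the cause was not tested. At 2 libraries per group and these depths, low counts limit the fold changes of TYR at D0 and D12, of TYRP1 at D0 and of SIX6 at D30 and D70.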
